A study of Homo sapiens with 2 samples.

Results

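Transcripts of 10 genes for metalloproteases and their inhibitors were compared between 2 libraries of FTC-133, an established human cell line from a follicular thyroid carcinoma. The genes were chosen by name: 7 proteases (MMP1, MMP2, MMP14, MMP15, ADAM9, ADAM10 and ADAM19) and 3 tissue inhibitors of metalloproteinases (TIMP1, TIMP2 and TIMP3), out of 19362 genes with a deposited value. They were picked with their values in these libraries known, so every value below is a description. The cells had been transfected with a control siRNA (1 library) or with siRNA against CHI3L1 (1 library), which encodes the secreted chitin-binding protein YKL-40. No further treatment, time after transfection or pooling of cultures is given in the sources used here. Because each group held 1 library, no difference could be set against a spread between cultures, and no test across conditions was made.

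Matrix metalloproteases (MMPs) are zinc enzymes that cut collagens and other proteins of the extracellular matrix, some as secreted proteins and some anchored in the cell membrane. ADAM proteases sit in the membrane and mainly release the outer parts of other membrane proteins. TIMPs bind the catalytic zinc of most MMPs and block them, and TIMP3 differs from the other TIMPs in that it is held in the matrix and also inhibits several ADAMs. In carcinomas the balance between the enzymes and their inhibitors is studied for its part in invasion.

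The proteases share a catalytic signature in which 3 histidines hold the zinc ion. It was found in the coding sequence of all 7 protease genes and of 0 of the 3 TIMP genes, and in 45 of 14221 protein-coding genes of the table (0.316%). The coding bases of that site are shown for 6 of the proteases, because the site is what these enzymes have in common. They are from GENCODE release 29 transcripts on GRCh38, 5′ to 3′ in the sense of the mRNA, with the codons of the 3 histidines in capitals.
MMP1: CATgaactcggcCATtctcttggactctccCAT
MMP2: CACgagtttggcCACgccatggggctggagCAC
MMP14: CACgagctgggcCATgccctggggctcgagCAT
MMP15: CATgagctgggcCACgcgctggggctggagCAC
ADAM10: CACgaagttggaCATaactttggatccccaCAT
ADAM19: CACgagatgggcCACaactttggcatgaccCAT
MMP14 and MMP15, the 2 membrane-anchored MMPs, were identical at 28 of these 33 bases, as were MMP2 and MMP15, and MMP15 and ADAM10 at 14, which was the fewest of the 15 pairs. MMP1, whose level differed most between the libraries, was identical to MMP14 at 23 bases and to MMP2 at 18.

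The sum of recovered reads was 15837449 with control siRNA and 19467345 with CHI3L1 siRNA, and 1 read was worth 0.0632 and 0.0513 CPM, the deposited unit of reads scaled to a common library total. CHI3L1 itself stood at 140 CPM (2215 reads) and 48.6 CPM (947 reads), a ratio of 0.347 (0.321 to 0.374). Intervals after a ratio are 95% exact (Clopper-Pearson) intervals from the reads, which cover counting error only. A log2 fold is the difference of log2(CPM + 1), CHI3L1 siRNA minus control siRNA, and understates the difference of low genes. Of the thyroid markers, the transcription factors NKX2-1 (88.6 and 112 CPM) and PAX8 (82.8 and 71.2 CPM) were present, while thyroglobulin (TG) had 10 and 14 reads. The 5 epithelial markers summed to 341 CPM with control siRNA and 376 CPM with CHI3L1 siRNA, mostly KRT7 (256 and 291 CPM). KRT8 stood at 51.8 and 55.9 CPM and KRT18 at 31.6 and 24.7 CPM. EPCAM had 32 and 78 reads, a ratio of 1.98 (1.29 to 3.08), and KRT19 had 8 and 5 reads. Of 6 immune markers, 1 was listed (PTPRC, with 12 and 8 reads), and 3 of 4 endothelial markers were listed, with a summed level of 11.3 and 9.75 CPM. The 7 fibroblast markers summed to 3074 CPM with control siRNA and 7183 CPM with CHI3L1 siRNA. Of these, COL1A1 (642 and 1429 CPM) and COL1A2 (1814 and 4959 CPM) made up most of the sum, THY1 stood at 558 and 745 CPM and LUM at 51.8 and 40.2 CPM. PDGFRB stood at 7.15 and 7.90 CPM, DCN had 19 and 29 reads and PDGFRA 9 and 2. The part of other cells in the values below was not tested, and fewer cells of a type and less RNA per cell cannot be told apart in bulk RNA.

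In the CHI3L1 siRNA library, TIMP3 was 3.64-fold higher and the collagenase gene MMP1 was 11.5-fold lower than in the control siRNA library. Of the 7 proteases, 2 were at least 1.5-fold higher (MMP2 and ADAM19), 1 was at least 1.5-fold lower (MMP1) and 4 did not pass 1.5-fold on the log2(CPM + 1) scale. Of the 3 inhibitors, 1 was at least 1.5-fold higher (TIMP3) and 2 did not pass. Of the 14815 genes that averaged 1 CPM or more over both libraries, the tested genes, 7.73% passed 1.5-fold upward and 13.4% downward; all 10 genes were among the tested. At 2-fold, TIMP3 was higher and MMP1 lower, beside 1.03% and 4.41% of tested genes. The counting interval lay wholly above 1 for 9 of the 10 genes and wholly below 1 for MMP1, beside 32% and 29.7% of tested genes. The log2 fold was above 0 for 9 of the 10 genes, MMP1 being the exception, against 51.2% of all tested genes. The median log2 fold was 0.43 for the proteases and 0.44 for the inhibitors, beside 0.01 for all tested genes.

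**Figure D1:**
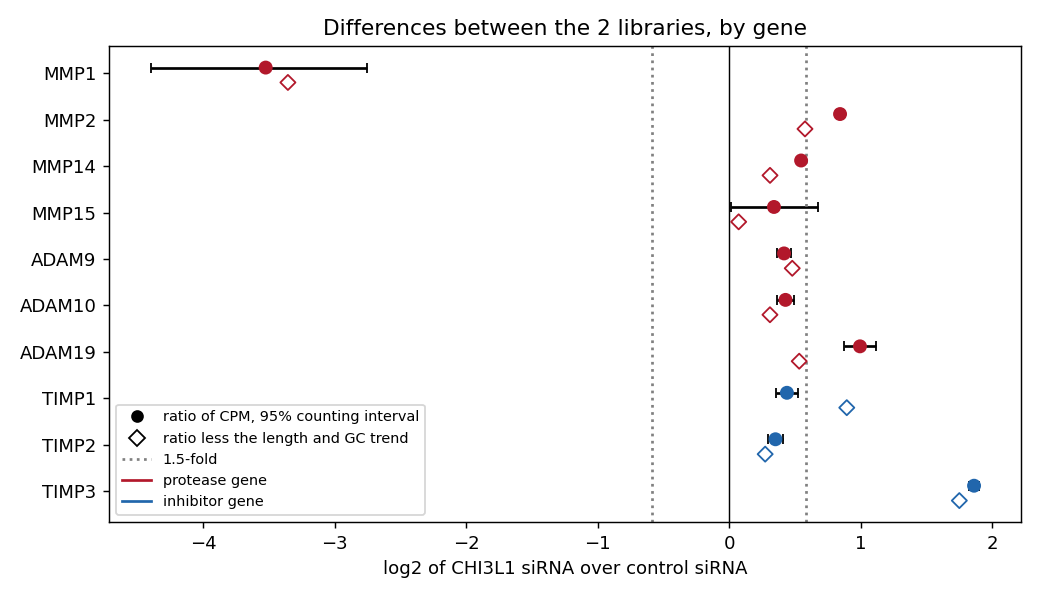
Log2 ratio of CPM with CHI3L1 siRNA over the control siRNA library for each gene (filled circles, with 95% counting intervals) and the same ratio less the trend with transcript length and GC content (open diamonds); dotted lines mark 1.5-fold, red proteases and blue inhibitors. MMP1 lies far to the left at a ratio of 0.0869, TIMP3 farthest to the right at 3.64, and the diamond of TIMP1 lies to the right of its circle.

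Among the secreted proteases, MMP1 and MMP2 lay on opposite sides. MMP1 (ENSG00000196611, chromosome 11, 102789920 to 102798160, minus strand, GRCh38), which cuts fibrillar collagens, had 140 reads (8.85 CPM) in the control siRNA library and 15 reads (0.769 CPM) in the CHI3L1 siRNA library. The ratio was 0.0869 (0.0474 to 0.148), and the whole interval was past 1.5-fold lower. Its log2 fold was −2.48, rank 14813 of 14815 tested genes from the highest. That value depends on the added CPM, since the gene was near 1 CPM with CHI3L1 siRNA: it was −2.88 with 0.5 CPM added and −0.81 with 10 CPM added. MMP2 (ENSG00000087245, chromosome 16, 55389700 to 55506691), which encodes a gelatinase, stood at 898 CPM with control siRNA and 1612 CPM with CHI3L1 siRNA, a ratio of 1.80 (1.76 to 1.83) and a log2 fold of 0.84.

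The membrane-anchored MMP14 held the most protease transcript in both libraries. MMP14 (ENSG00000157227, chromosome 14, 22836557 to 22849027), which cuts collagen at the cell surface and activates pro-MMP2 in a complex with TIMP2, stood at 3471 CPM with control siRNA and 5076 CPM with CHI3L1 siRNA. The ratio was 1.46 (1.45 to 1.48), just under 1.5-fold, with a log2 fold of 0.55. MMP15 (ENSG00000102996, chromosome 16, 58025566 to 58046901), another membrane-anchored MMP, stood at 8.09 CPM (128 reads) and 10.3 CPM (200 reads), a ratio of 1.27 (1.01 to 1.59). Per kilobase of annotated transcript, the level of MMP14 was 488 times that of MMP15 with control siRNA and 564 times with CHI3L1 siRNA.

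The 3 ADAM genes were all higher in the CHI3L1 siRNA library, and ADAM19 was the 1 that passed 1.5-fold. ADAM19 (ENSG00000135074, chromosome 5, 157395534 to 157575775, minus strand), a shedding protease, stood at 47.7 CPM with control siRNA and 95.1 CPM with CHI3L1 siRNA, a ratio of 1.99 (1.83 to 2.17) and a log2 fold of 0.98. ADAM9 (ENSG00000168615, chromosome 8, 38996869 to 39105144), another shedding protease, stood at 303 and 405 CPM (ratio 1.34, 1.29 to 1.39). ADAM10 (ENSG00000137845, chromosome 15, 58588807 to 58749978, minus strand), which cuts Notch receptors and many adhesion proteins, stood at 209 and 282 CPM (ratio 1.35, 1.29 to 1.41). Thus ADAM9 and ADAM10 had nearly the same ratio, with overlapping counting intervals, and ADAM19 lay above both.

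**Figure D2:**
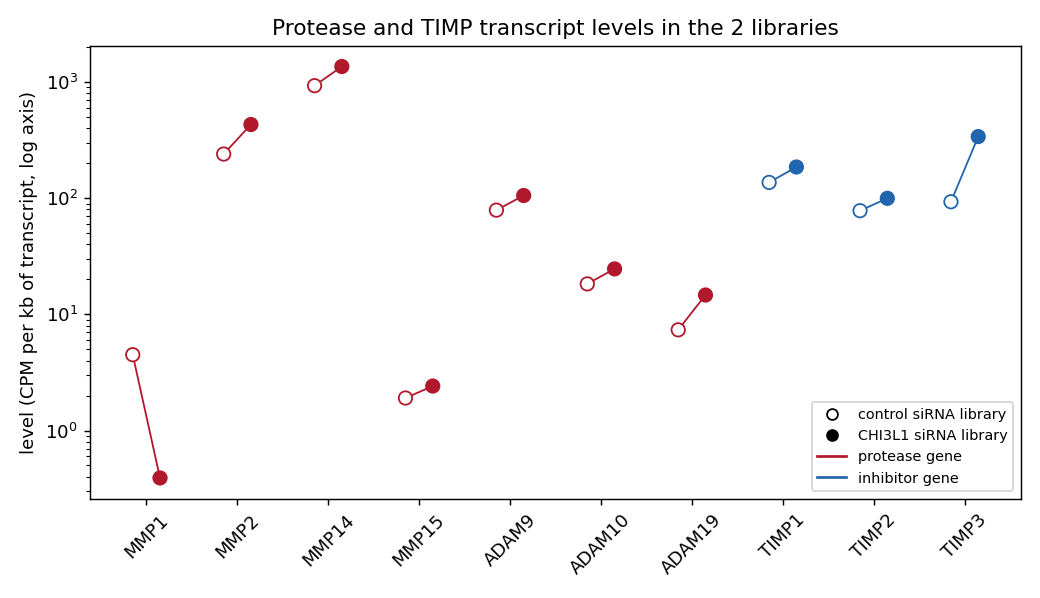
Level of each gene in CPM per kilobase of annotated transcript (log axis) in the control siRNA library (open circles) and the CHI3L1 siRNA library (filled circles), with 1 library per group; red, proteases, and blue, inhibitors. MMP14 is highest in both libraries (930.2 and 1360.2), MMP1 moves from 4.49 down to 0.391, and TIMP3 moves from 93.2 up to 339.

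TIMP3 stood apart among the inhibitors. TIMP3 (ENSG00000100234, chromosome 22, 32801701 to 32863043) stood at 429 CPM (6782 reads) with control siRNA and 1561 CPM (30431 reads) with CHI3L1 siRNA, a ratio of 3.64 (3.54 to 3.74). Its log2 fold of 1.86 was the 5th highest of the 14815 tested genes. TIMP1 (ENSG00000102265, chromosome X, 47582313 to 47586789), a secreted inhibitor of most MMPs, stood at 122 and 166 CPM (ratio 1.36, 1.28 to 1.44). TIMP2 (ENSG00000035862, chromosome 17, 78852977 to 78925387, minus strand), which also takes part in pro-MMP2 activation, stood at 285 and 364 CPM (ratio 1.28, 1.23 to 1.33). TIMP1 and TIMP2 were thus close to the ratios of ADAM9 and ADAM10, and TIMP3 was not. The fourth family gene, TIMP4, had 29 reads (1.83 CPM) and 58 reads (2.97 CPM), a ratio of 1.62 (1.02 to 2.63).

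Per kilobase of annotated transcript, TIMP1 was the most abundant inhibitor in the control siRNA library, at 137 CPM per kb, followed by TIMP3 at 93.2 and TIMP2 at 78.1. In the CHI3L1 siRNA library TIMP3 came first at 339 CPM per kb, before TIMP1 at 186 and TIMP2 at 99.7. TIMP3 thus went from 30.3% to 54.3% of the summed inhibitor level per kb. The order in the control siRNA library rests on the length used, because the TIMP1 transcript (892 nt) is much shorter than those of TIMP2 (3652 nt) and TIMP3 (4603 nt) while the coding lengths are alike (621, 660 and 633 nt). Per kilobase of coding sequence the order was TIMP3, TIMP2, TIMP1 in both libraries, with TIMP3 at 678 and 2466 CPM per coding kb.

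The bases before the start site of TIMP3 are shown because it had the highest ratio of the 10 genes. The sequence is from RefSeq on GRCh38.p14 and covers the 250 bases before the RefSeq start, chr22:32801455-32801704 on the plus strand. The RefSeq start lies 4 bases inside the GENCODE gene given above. Capitals mark GGGCGG (a GC box) and CCAAT, each on either strand.
TIMP3: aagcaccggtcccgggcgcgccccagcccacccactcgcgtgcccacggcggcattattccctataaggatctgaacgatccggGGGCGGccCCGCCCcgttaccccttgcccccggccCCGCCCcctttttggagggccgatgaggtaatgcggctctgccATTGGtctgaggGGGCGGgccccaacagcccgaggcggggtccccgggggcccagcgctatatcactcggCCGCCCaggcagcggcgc
The TIMP3 window held 5 GC boxes and 1 CCAAT box. Among 27305 promoter windows of this length, 42.3% held GGGCGG and 33% held CCAAT. A search on both strands for TGANTCA, the AP-1 motif, and for TATAAA found 0 matches in it, against 6.6% and 11.1% of all windows. No motif overlapped another. Of the 10 genes, 6 were matched in the promoter table (MMP14, MMP15, ADAM10, ADAM19, TIMP1 and TIMP3). MMP15, whose ratio was 1.27, also held 5 GC boxes and 1 CCAAT box, and ADAM19, whose ratio was 1.99, held 0 of each. The TIMP1 window held 2 GC boxes and 0 CCAAT boxes, and its RefSeq start lies 123 bases inside the GENCODE gene, as that of MMP15 lies 188 bases inside, so these windows hold bases that GENCODE places within the gene.

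Proteases against inhibitors were compared by their summed level per kilobase of transcript. The 7 proteases summed to 1281 CPM per kb with control siRNA and 1939 CPM per kb with CHI3L1 siRNA, 1.51 times as much. The 3 inhibitors summed to 308 and 624 CPM per kb, 2.03 times as much. Inhibitors per protease were therefore 0.240 with control siRNA and 0.322 with CHI3L1 siRNA, a log2 difference of 0.42. This is a ratio of transcript sums, which leaves out protein amounts and which inhibitor blocks which protease. Before any correction for length and GC content, TIMP3 decided the sign of that difference. Without it, inhibitors per protease were 0.168 and 0.147, a log2 difference of −0.19. The difference without TIMP3 was not computed after such a correction, and its negative sign may not hold there. With the correction, the log2 folds of TIMP1 and TIMP2 were 0.89 and 0.27, and the protease sum was 1.29 times as much. MMP14 made up 72.6% and 70.2% of the summed protease level, MMP2 18.7% and 22.2%, and MMP1 0.351% and 0.0201%. The large ratio of MMP1 therefore moved the protease sum little.

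**Figure D3:**
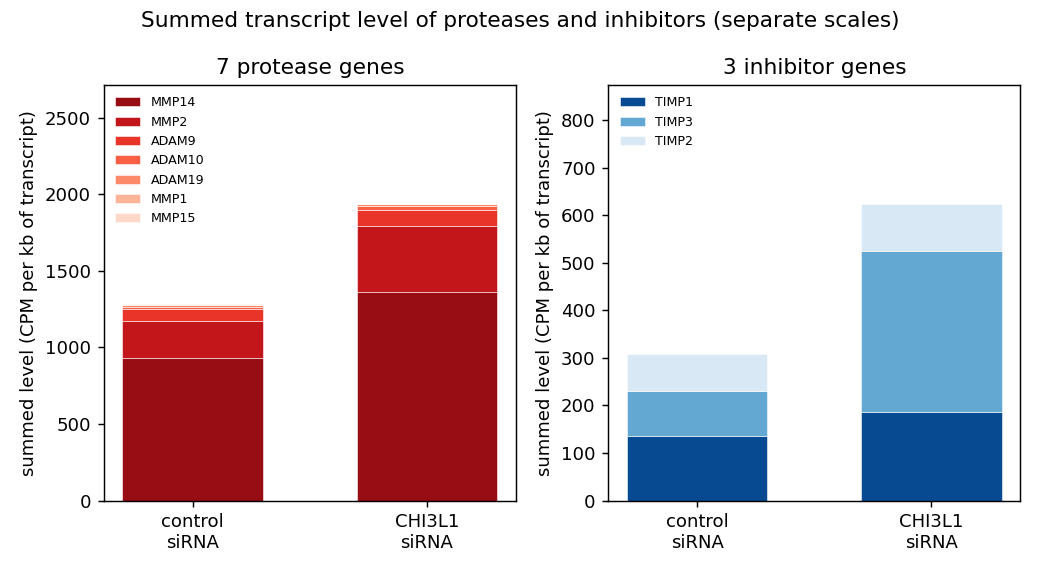
Summed level in CPM per kilobase of transcript (bars from 0, on separate scales) of the 7 proteases, left, and the 3 inhibitors, right, in each library, stacked by gene. The protease bars reach 1281 and 1939 and are mostly MMP14; the inhibitor bars reach 308 and 624, and the TIMP3 segment goes from 30.3% to 54.3% of the bar.

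Single inhibitor and protease pairs were compared in the same way. TIMP3 per ADAM10 transcript, on the per kb scale, was 5.09 with control siRNA and 13.8 with CHI3L1 siRNA, and TIMP3 per MMP14 was 0.10 and 0.249. TIMP2 per MMP14, the pair of the pro-MMP2 activation complex, was 0.0839 and 0.0733, a log2 difference of −0.20. MMP14 per MMP2 was 3.88 and 3.16.

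Folds in these libraries followed transcript length, and the 10 genes differ in length. For the 599 tested coding genes with transcripts no longer than 1000 nt the median log2 fold was −0.62, and for the 4627 with transcripts longer than 4000 nt it was 0.25. A spline trend of log2 fold in GC content, coding length and transcript length was fitted to coding genes outside all lists used here and accounted for 36.3% of their variance. At the length and GC content of TIMP1 the trend was −0.46, and at those of ADAM19 (6481 nt) it was 0.46. After subtraction of the trend, TIMP3 had a log2 fold of 1.75, TIMP1 of 0.89, ADAM19 of 0.52 and MMP2 of 0.58. TIMP1 was then past 1.5-fold, while ADAM19 and MMP2 were not. MMP1 remained lower, with a log2 fold of −2.31, and MMP14 (0.31), ADAM9 (0.48), ADAM10 (0.31), TIMP2 (0.27) and MMP15 (0.04) stayed within 1.5-fold. After the subtraction, 0 of 7 proteases and 2 of 3 inhibitors were thus at least 1.5-fold higher and 1 protease was at least 1.5-fold lower. Over the 12660 coding genes with a length, 6.1% were then higher and 7.24% lower. How far the lengths account for the folds of single genes was not tested.

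**Figure D4:**
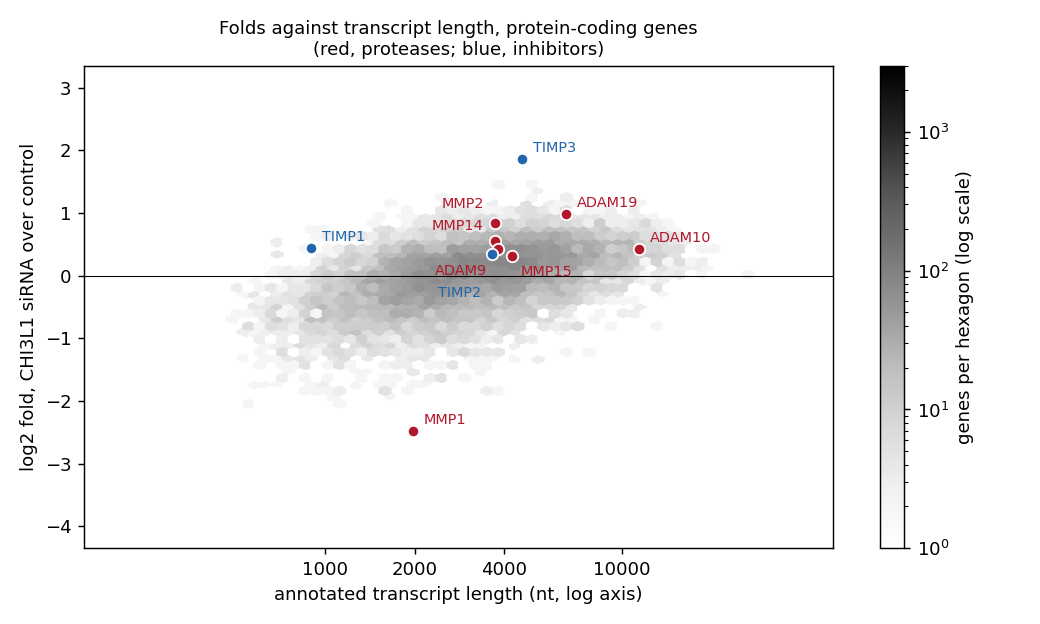
Log2 fold (1 CPM added) against annotated transcript length (log axis) for 12660 coding genes, shown as hexagons shaded by the number of genes, with the proteases in red and the inhibitors in blue. TIMP3 and MMP1 lie outside the dense cloud at 1.86 and −2.48, and TIMP1 lies near its upper edge at 892 nt.

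The other genes of the same families are given apart from the 10, whose values were known when they were chosen. Of 23 MMP genes, 16 were listed and 11 were tested (a mean of at least 1 CPM), 7 of them outside the 10. The median log2 fold of these 7 was 0.32. Of them, 1 was at least 1.5-fold higher and 1 lower, beside 7.73% and 13.4% of all tested genes. These were MMP24, a membrane-anchored MMP (28 and 66 reads, a ratio of 1.91, 1.21 to 3.09), and MMP13, a collagenase like MMP1 (33 and 20 reads, a ratio of 0.492, 0.267 to 0.882). After subtraction of the length and GC trend, MMP24 (0.37) and MMP13 (−0.34) were within 1.5-fold. Of all 11 tested MMP genes, 0 were then at least 1.5-fold higher and 2 lower, MMP1 and the membrane-anchored MMP25 (−0.73), which was named after its value was seen. MMP25 had 32 and 21 reads, a ratio of 0.532 (0.292 to 0.952), and shares 1454 exon bases with MMP25-AS1 on the opposite strand. MMP24 shares 799 exon bases with MMP24OS on the opposite strand, which had 185 and 384 reads. The stromelysin genes MMP3 and MMP10, which lie near MMP1, were named after their values were seen and had 6 and 3 reads and 6 and 1 reads, ratios whose intervals held 1 (0.0656 to 1.90 and 0.00294 to 1.11). MMP7, also on chromosome 11 and named after its value was seen, went the other way. It had 1 and 9 reads, a ratio of 7.3 (1.01 to 320).

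The 4 tested ADAM genes with a catalytic site outside the 10 had a median log2 fold of 0.38. Of these, 2 were at least 1.5-fold higher and 0 lower, beside 7.73% and 13.4% of all tested genes. These were ADAM12 (160 and 282 CPM, a ratio of 1.77, 1.69 to 1.85) and ADAM15 (51.7 and 82.6 CPM, a ratio of 1.60, 1.47 to 1.74). ADAM17, the main sheddase of EGF receptor ligands and named after its value was seen, stood at 61.8 and 66.1 CPM (ratio 1.07, 0.983 to 1.16). All 7 tested genes of this list, the 3 described above included, had a log2 fold above 0. After the subtraction 0 of the 7 were past 1.5-fold, and ADAM8 (−0.10) and ADAM17 (−0.02) were below 0. ADAM28, under the mean of 1 CPM, had 10 and 5 reads and was not among the tested genes. ADAM8 and ADAM28 were named after their values were seen. The 2 tested ADAM genes without a catalytic site, ADAM11 and ADAM32, had log2 folds of −0.11 and −0.52.

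The 13 tested ADAMTS genes, a family of secreted proteases of the matrix, had a median log2 fold of 0.18. Of these, 2 were at least 1.5-fold higher and 0 lower, beside 7.73% and 13.4% of all tested genes. These were ADAMTS15 (34.9 and 54.2 CPM) and ADAMTS9 (12 and 18.7 CPM). After subtraction of the trend the ADAMTS median was −0.26. BMP1, an astacin protease that trims procollagens, stood at 279 and 443 CPM (ratio 1.59, 1.53 to 1.65), and the other 2 tested astacins did not pass 1.5-fold. After the subtraction, 0 genes of either list were at least 1.5-fold higher and 1 of each was lower: ADAMTS3 (−0.75) and TLL2 (−0.66), both named after their values were seen. ADAMTS3 had 47 and 36 reads, a ratio of 0.621 (0.391 to 0.980). TLL2 had 33 and 32 reads, and its ratio of 0.787 had an interval that held 1 (0.468 to 1.32). The trend subtracted was 0.27 for ADAMTS3 and 0.44 for TLL2.

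Of 4 other tested metalloprotease inhibitors, 1 was at least 1.5-fold higher and 0 lower, beside 7.73% and 13.4% of all tested genes. It was SPOCK1, a matrix proteoglycan, at 178 CPM with control siRNA and 369 CPM with CHI3L1 siRNA, a ratio of 2.07 (1.98 to 2.16) and a log2 fold of 0.87 after the subtraction, when TFPI2, named after its value was seen, also passed 1.5-fold (0.76). RECK, a membrane-anchored inhibitor of MMPs named after its value was seen, stood at 26.9 and 33 CPM. Of 3 tested proprotein convertases, enzymes of the class that activates membrane-type MMPs and ADAMs, PCSK1 alone passed 1.5-fold, at 12.1 and 29.7 CPM (ratio 2.46, 2.08 to 2.91), and it did so after the subtraction too (1.02). FURIN, the convertase best known for that activation and also named after its value was seen, stood at 102 and 137 CPM. LRP1, an endocytic receptor that clears MMPs and TIMP3, stood at 461 and 922 CPM (ratio 1.999, 1.95 to 2.05), and the collagen receptor gene MRC2 at 465 and 747 CPM. The other 2 genes of that list, CD63 and BSG, did not pass 1.5-fold. After the subtraction LRP1 (0.48) and MRC2 (0.30) no longer passed, and BSG (0.58) narrowly did, the 1 gene of the 4 that was then higher.

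**Figure D5:**
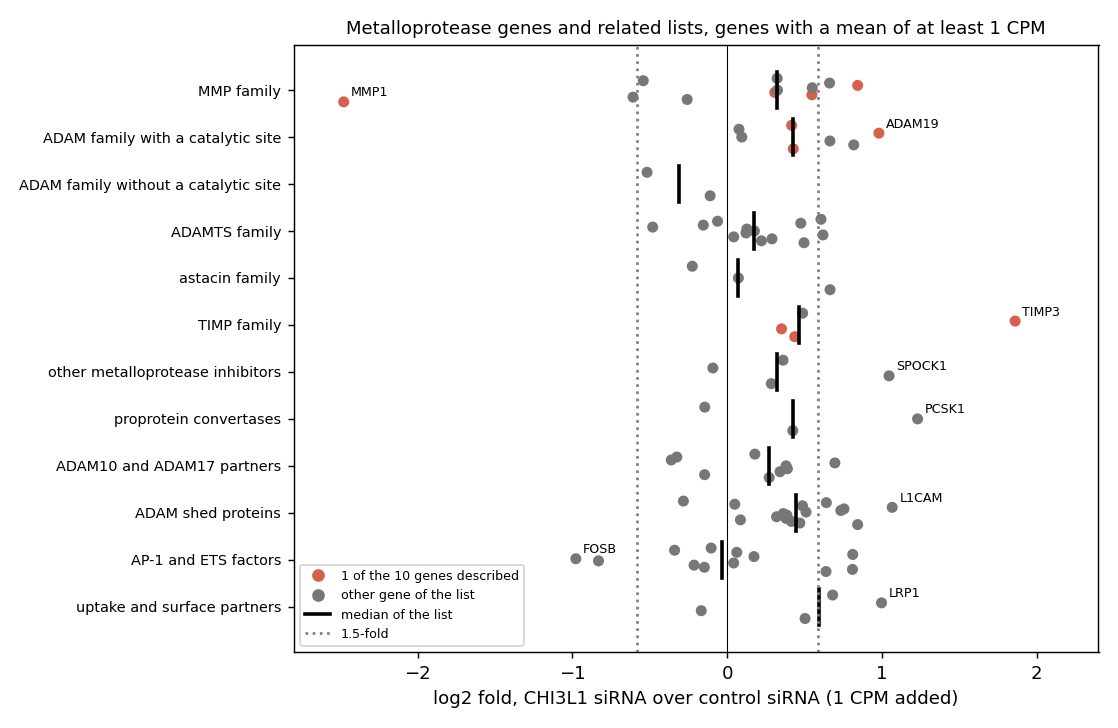
Log2 fold (1 CPM added, horizontal axis) of each tested gene in 12 lists of metalloprotease families and related genes; red points are among the 10 genes described, black bars are list medians and dotted lines 1.5-fold. MMP1 and TIMP3 lie farthest out, at −2.48 and 1.86, and the 7 tested ADAM proteases with a catalytic site lie above 0, of which 2 were below 0 after the length and GC correction.

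Partners and substrates of the ADAMs were mostly within 1.5-fold, but the substrates passed it upward more often than tested genes as a whole. Of 9 genes for partners of ADAM10 and ADAM17, 1 was at least 1.5-fold higher and 0 lower: TSPAN15, a tetraspanin that binds ADAM10, at 67.2 and 109.6 CPM (ratio 1.63, 1.51 to 1.76), with 0.85 after the subtraction. The 16 tested genes for proteins that ADAMs release had a median log2 fold of 0.44 (0.20 after the subtraction). Of these, 5 were at least 1.5-fold higher and 0 lower, beside 7.73% and 13.4% of all tested genes. The 3 highest by size were the adhesion molecule L1CAM (27.6 and 59.0 CPM), the amyloid precursor APP (586 and 1052 CPM) and the Notch ligand JAG1 (41.8 and 71.2 CPM). The 2 others were HBEGF and NOTCH2, named to complete the count. After the subtraction JAG1 (0.34) and NOTCH2 (0.12) no longer passed 1.5-fold, and the EGF receptor ligands EREG (0.995) and AREG (0.86), named after their values were seen, did. AREG had 12 and 28 reads, and its ratio of 1.89 had an interval that held 1 (0.932 to 4.09). The number at least 1.5-fold higher was again 5 of 16, beside 6.1% of the 12660 coding genes with a length.

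MMP1 is a textbook target of AP-1 and ETS transcription factors, so their genes were listed. The 12 tested had a median log2 fold of −0.03. Of these, 3 were at least 1.5-fold higher and 2 lower, beside 7.73% and 13.4% of all tested genes. FOSB stood at 260 CPM with control siRNA and 131 CPM with CHI3L1 siRNA (ratio 0.506, 0.482 to 0.532), and FOS at 468 and 263 CPM (ratio 0.561, 0.542 to 0.582). FOSL2 stood at 202 and 356 CPM (ratio 1.76, 1.69 to 1.84), and the other 2 that passed 1.5-fold, ETS1 and ETS2, had log2 folds of 0.64 and 0.81. After the subtraction FOSL2 (0.45) no longer passed, and the other 4 did. JUN, which pairs with FOS proteins in AP-1, stood at 459 and 479 CPM. Members of the same factor family thus lay on both sides, and their part in the level of MMP1 was not tested.

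The exons of 4 of the 10 genes overlap exons of another gene in the table: ADAM10, ADAM19, MMP2 and TIMP2. The overlapping genes had at most 13 reads in either library, against at least 754 for the 4 genes. The shared exon bases were 136 for ADAM10, 62 for ADAM19, 174 for MMP2 and 198 for TIMP2. How reads on shared bases were counted is not given, and reads left uncounted there cannot be seen in these values. MMP2 and TIMP2 share exon bases with a gene on the same strand, ADAM10 and ADAM19 with one on the opposite strand. TIMP1 and TIMP3 lie inside SYN1 and SYN3 on the opposite strand and share no exon base with them.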

How the data were processed

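RNA sequencing of 2 FTC-133 libraries, 1 per group, was assigned to groups by the labels. Trizol-extracted RNA went into Illumina TruSeq libraries, per the labels' protocols. HISAT2, featureCounts, Trimmomatic, FastQC, MultiQC and the build GRCh38 are named in the submitters' processing notes; how the authors normalised, which annotation release they used and whether counting used strand are steps not given in the sources used here. The deposited unit is CPM, inferred from the values, since the columns sum to 1001495.49 and 998506.744. Dividing by a step per library and taking off 0.001 read, 100% of values gave whole reads within 0.01 read. Every listed gene had at least 6 reads in 1 library. A count of 0 allows 3 reads, or 0.19 and 0.154 CPM. No count test was run, since 1 library per group leaves no residual degrees of freedom.

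Symbols and coordinates were taken from GENCODE release 29 and an Ensembl identifier table. A symbol was had for 19320 identifiers, 19315 were in the release, and a transcript length for 12660 of the 14815 tested coding and non-coding genes (85.5%). 1 transcript per coding gene was used (principal, best supported, then longest; mitochondrially encoded genes left out). The length and GC trend is a regression on splines with 5 degrees of freedom per term (patsy 1.0.2). Read recovery, fold calls and the coverage of the counting intervals were tested on simulated reads. The length and GC trend and the other steps were not. The 10 genes and the lists were chosen with earlier results of these data known. Named genes are the 10, CHI3L1 and, in each list, up to 3 others with the largest absolute log2 fold past 1.5-fold among genes averaging 1 CPM or more; others are said to be named after their values were seen, apart from cell type markers and the remaining genes of small counts. Python 3.11.15 and scipy 1.17.1 were used.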

Additional observations from a re-analysis of the deposited data

How the results depend on the processing

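No paired analysis was possible because each group held 1 library. Without replicates, no library could be left out. Of the 10 genes, each kept the sign of its log2 fold under pseudocounts of 0.5 and 10 CPM, centring on genes averaging 50 CPM or more, scaling by a trimmed mean of log ratios and the length and GC correction; MMP1 ranged from −2.88 to −0.81, TIMP3 from 1.75 to 1.88, ADAM19 from 0.52 to 1.00 and TIMP1 from 0.34 to 0.89. The number of proteases at least 1.5-fold higher was 2, and 0 after the length and GC correction or at 2-fold. The number lower was 1, and 0 with a minimum mean of 10 CPM, which MMP1 does not reach. Inhibitors at least 1.5-fold higher were 1, and 2 after the correction. The log2 difference of inhibitors per protease (0.42) was 0.73 without division by length, 0.30 without MMP14, the protease with the highest level, and −0.19 without TIMP3, the inhibitor with the highest level over both libraries together. These values are without the length and GC correction, and the difference without TIMP3 was not computed with it. With all 10 genes, the log2 difference was 0.74 per kb of coding sequence and 0.73 after the correction, both added after the data were seen. List medians that moved by at least 0.2 after the correction became −0.26 for ADAMTS, −0.16 for astacins, 0.80 for TIMPs, 0.15 for convertases, 0.20 for ADAM shed proteins and 0.39 for uptake and surface partners. With no filter on the mean they became 0.025 for MMPs, −0.11 for ADAMs without a catalytic site and 0.14 for convertases, and with a pseudocount of 10 CPM −0.080 for ADAMs without a catalytic site. Depth limits the genes of few reads, among them MMP1, MMP13 and MMP24, which had at most 140 reads in a library. TIMP4, MMP25, ADAMTS3, TLL2, AREG, ADAM11 and ADAM32 also had fewer than 140 reads in each library. MMP15 had 128 reads with control siRNA.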
